A study of Mus musculus with 4 samples.

Results

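Regions of open chromatin that were called in exactly 3 of 4 mouse liver libraries are described here, sorted by the library that lacked the call. ATAC-seq, the assay used, marks open DNA through adaptors that the Tn5 transposase inserts into it. Peaks of the 4 deposited lists were merged where they overlapped or touched, which gave 38853 regions. Any peak of a library inside a region made it a call of that library. Of the 38853 regions, 5213 (13.4%) were called in exactly 3 libraries. Another 17581 were called in all 4 libraries, 5647 in 2 and 10412 in 1. These regions were chosen by the calls themselves, so their numbers and the presence or absence of calls are descriptions and carry no test.

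The 4 libraries came from frozen livers of female FVB mice, 11 weeks old and fed a standard chow. There were 2 wild-type libraries (WT 1 and WT 2) and 2 from mice labelled PA (PA 1 and PA 2), and the series design calls the replicates biological. PA mice are given as hypomorphic, Pcca-/- (A138T). Pcca encodes a subunit of propionyl-CoA carboxylase, which breaks down propionyl-CoA, and the labels name no other allele or treatment. PA 2 had the longest list, with 29765 peaks, then WT 1 with 26280, WT 2 with 25941 and PA 1 with 25683. The lists give positions alone, nearly all 400 bp long, with no height or score, and the read depth of each library is unknown. A missing call therefore means that no peak was listed there, and not that the DNA was closed. In whole liver, fewer cells of a type and less accessible chromatin per cell cannot be told apart.

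Hepatocytes make up most of the liver's mass. Their regulatory DNA is bound by factors such as HNF4A, the C/EBP proteins and the FOXA proteins. Promoters of widely used genes lie mostly in stretches rich in the dinucleotide CpG and are open in most tissues. Promoters of genes for secreted liver proteins are often poor in CpG, and much of the tissue's own regulation sits in enhancers inside or between genes. Of the marker genes checked, 2 of 6 for hepatocytes had a region of all 4 libraries at a gene end, meaning 1 kb or less from either end of the gene. The same held for 2 of 7 endothelial, 1 of 6 stellate cell, 0 of 7 Kupffer cell, 0 of 5 bile duct and 0 of 6 lymphocyte markers, where 40.7% of all protein-coding genes had one. The hepatocyte markers thus had such a region no more often than other genes, and these counts do not single out hepatocytes. Regions called in 3 libraries added Hnf4a and Serpina1a among the hepatocyte markers and Sox9 among those of bile duct cells.

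The DNA at the starts of genes that stood highest among the 5213 regions is shown first, since it shows what kind of promoter could lose 1 call. For each lacking library the sequences are those of the first 2 regions, in the order described below, that overlapped a RefSeq start window in GRCm38.p6. Such a window holds 250 bases before a gene's start and 50 after it. Capitals mark the GC box, GGGCGG on either strand, the site of SP and KLF factors. Abcc4 and Rbm15b lacked WT 1, the pair of Mgst1 windows lacked WT 2, Ptms and Cebpb lacked PA 1, and Birc5 and C2cd2 lacked PA 2.
Abcc4: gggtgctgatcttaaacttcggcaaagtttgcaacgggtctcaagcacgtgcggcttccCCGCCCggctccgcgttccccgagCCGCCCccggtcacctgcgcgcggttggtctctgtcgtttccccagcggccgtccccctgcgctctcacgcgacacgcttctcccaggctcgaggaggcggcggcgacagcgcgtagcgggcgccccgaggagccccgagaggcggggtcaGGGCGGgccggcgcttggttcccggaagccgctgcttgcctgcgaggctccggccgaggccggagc
Rbm15b: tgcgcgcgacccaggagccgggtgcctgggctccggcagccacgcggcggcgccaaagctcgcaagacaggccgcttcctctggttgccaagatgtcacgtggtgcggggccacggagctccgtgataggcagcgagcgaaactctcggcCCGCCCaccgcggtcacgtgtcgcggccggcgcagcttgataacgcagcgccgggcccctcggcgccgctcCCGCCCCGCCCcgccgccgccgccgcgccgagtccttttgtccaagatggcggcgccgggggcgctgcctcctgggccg
Mgst1 downstream window: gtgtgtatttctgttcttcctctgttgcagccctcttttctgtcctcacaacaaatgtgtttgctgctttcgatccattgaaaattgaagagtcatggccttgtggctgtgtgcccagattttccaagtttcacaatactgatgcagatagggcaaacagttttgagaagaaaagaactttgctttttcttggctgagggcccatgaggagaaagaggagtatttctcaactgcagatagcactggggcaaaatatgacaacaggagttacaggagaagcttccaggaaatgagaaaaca
Mgst1 upstream window: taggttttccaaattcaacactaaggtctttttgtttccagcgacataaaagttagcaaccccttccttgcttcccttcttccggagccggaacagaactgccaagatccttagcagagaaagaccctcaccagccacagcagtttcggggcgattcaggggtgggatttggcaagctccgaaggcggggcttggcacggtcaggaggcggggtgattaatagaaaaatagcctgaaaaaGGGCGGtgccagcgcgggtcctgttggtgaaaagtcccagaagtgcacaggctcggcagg
Ptms: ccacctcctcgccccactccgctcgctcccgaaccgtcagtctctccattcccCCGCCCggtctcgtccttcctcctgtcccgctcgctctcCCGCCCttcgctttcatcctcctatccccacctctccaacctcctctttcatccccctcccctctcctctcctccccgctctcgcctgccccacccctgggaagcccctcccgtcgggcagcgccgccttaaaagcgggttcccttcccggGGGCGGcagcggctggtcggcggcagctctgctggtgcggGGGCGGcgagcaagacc
Cebpb: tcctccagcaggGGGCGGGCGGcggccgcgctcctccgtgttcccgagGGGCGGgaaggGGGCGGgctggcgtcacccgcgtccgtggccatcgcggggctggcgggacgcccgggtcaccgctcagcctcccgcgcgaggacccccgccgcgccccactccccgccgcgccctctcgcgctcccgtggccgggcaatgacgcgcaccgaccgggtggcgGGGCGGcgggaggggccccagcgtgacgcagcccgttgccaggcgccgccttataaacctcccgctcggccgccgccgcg
Birc5: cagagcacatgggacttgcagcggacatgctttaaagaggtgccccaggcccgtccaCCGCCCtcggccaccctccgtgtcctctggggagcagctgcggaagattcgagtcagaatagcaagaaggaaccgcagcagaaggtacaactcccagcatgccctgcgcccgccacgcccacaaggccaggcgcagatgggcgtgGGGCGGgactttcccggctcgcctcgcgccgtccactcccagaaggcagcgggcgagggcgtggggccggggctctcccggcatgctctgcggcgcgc
C2cd2: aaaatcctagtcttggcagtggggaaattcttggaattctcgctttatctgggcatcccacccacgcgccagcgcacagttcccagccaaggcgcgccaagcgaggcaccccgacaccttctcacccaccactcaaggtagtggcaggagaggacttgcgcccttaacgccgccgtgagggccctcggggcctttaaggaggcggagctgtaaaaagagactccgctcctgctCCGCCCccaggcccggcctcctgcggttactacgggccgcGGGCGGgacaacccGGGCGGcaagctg
The windows lie at chr14:118706170-118706469 (minus strand) for Abcc4, chr9:106887026-106887325 (minus) for Rbm15b, chr6:138141337-138141636 and chr6:138140277-138140576 (plus) for Mgst1, chr6:124917897-124918196 (minus) for Ptms, chr2:167688665-167688964 (plus) for Cebpb, chr11:117848987-117849286 (plus) for Birc5 and chr16:97922584-97922883 (minus) for C2cd2. CpG was counted on the strand shown. Cebpb had 50 CpG in its 300 bases, Rbm15b 46, Abcc4 41, Ptms and Birc5 27 each and C2cd2 24. The upstream window of Mgst1, of which the region covered 14 bases, had 13, and the downstream window had 1 and no GC box. These windows were thus mostly of the CpG-rich kind, as were start windows under called regions in general. At least 10 CpG were found in 76.0% of windows under regions of exactly 3 libraries and in 91.7% under regions of all 4.

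Windows poor in CpG are shown next for comparison, from the fixed gene lists. For each lacking library, the highest standing list gene whose start window was overlapped by such a region and held fewer than 10 CpG was taken, a choice made after the values were seen, so their low CpG counts are set by that choice. They are Ahsg (fetuin-A, a plasma protein; lacking WT 1), Nr1i2 (the xenobiotic receptor PXR; lacking WT 2), Acaa1b (a peroxisomal thiolase; lacking PA 1) and Serpina1a (alpha-1-antitrypsin; lacking PA 2). Capitals mark the CCAAT box (CCAAT) and letters of 3 kinds of liver factor site, TTGCNNAA for C/EBP, TGTTTAC for FOXA and AAAGTCC for part of an HNF4A site, on either strand.
Ahsg: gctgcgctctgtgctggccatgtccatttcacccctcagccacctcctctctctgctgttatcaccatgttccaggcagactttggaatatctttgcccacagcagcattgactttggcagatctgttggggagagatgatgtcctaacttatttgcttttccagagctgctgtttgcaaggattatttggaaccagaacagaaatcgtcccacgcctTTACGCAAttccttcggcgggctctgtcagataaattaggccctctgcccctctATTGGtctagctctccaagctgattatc
Nr1i2: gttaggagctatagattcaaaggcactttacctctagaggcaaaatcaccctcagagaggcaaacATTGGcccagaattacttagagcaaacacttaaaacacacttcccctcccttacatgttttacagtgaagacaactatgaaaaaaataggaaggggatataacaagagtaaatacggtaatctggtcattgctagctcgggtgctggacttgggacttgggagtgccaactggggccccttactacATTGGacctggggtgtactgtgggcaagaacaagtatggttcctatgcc
Acaa1b: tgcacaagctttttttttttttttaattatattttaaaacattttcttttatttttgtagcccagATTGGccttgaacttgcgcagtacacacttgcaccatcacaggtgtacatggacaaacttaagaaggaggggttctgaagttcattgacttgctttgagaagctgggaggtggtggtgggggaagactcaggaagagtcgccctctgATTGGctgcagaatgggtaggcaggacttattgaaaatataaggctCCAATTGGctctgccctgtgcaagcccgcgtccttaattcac
Serpina1a: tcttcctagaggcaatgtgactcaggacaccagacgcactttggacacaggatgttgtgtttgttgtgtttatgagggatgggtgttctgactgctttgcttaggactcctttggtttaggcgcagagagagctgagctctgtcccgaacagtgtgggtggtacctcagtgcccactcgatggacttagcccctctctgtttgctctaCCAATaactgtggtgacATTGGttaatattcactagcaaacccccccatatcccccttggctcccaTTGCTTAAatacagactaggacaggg
The windows lie at chr16:22891765-22892064 (plus), chr16:38294775-38295074 (minus), chr9:119157044-119157343 (minus) and chr12:103863570-103863869 (minus). They hold 6, 2, 4 and 4 CpG and no GC box. Ahsg and Serpina1a have 1 match each to the C/EBP letters. Nr1i2 and Acaa1b match none of the 3 liver factor strings in these windows, while CCAAT occurs 2 times in the first and 4 times in the second.

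The library without a call was PA 1 for 2245 of the 5213 regions (43.1%), WT 1 for 1359 (26.1%), WT 2 for 1097 (21.0%) and PA 2 for 512 (9.82%). These are 5.78%, 3.5%, 2.82% and 1.32% of all merged regions. Of the regions called in the other 3 libraries, PA 1 lacked 11.3% (exact Clopper-Pearson 95% interval 10.9 to 11.8), WT 1 7.18% (6.81 to 7.55), WT 2 5.87% (5.54 to 6.22) and PA 2 2.83% (2.59 to 3.08). The intervals cover the counting of regions only. PA 1 had the shortest list and PA 2 the longest, but WT 1, with more peaks than WT 2, lacked more. Taking the first 25683 lines of each list, 1892 regions lacked PA 1, 1097 WT 1, 885 WT 2 and 827 PA 2, so the order of the 4 libraries was the same and the number lacking PA 2 was larger by over 1.5 times. Calls past that line were left out and count as missing here.

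**Figure D1:**
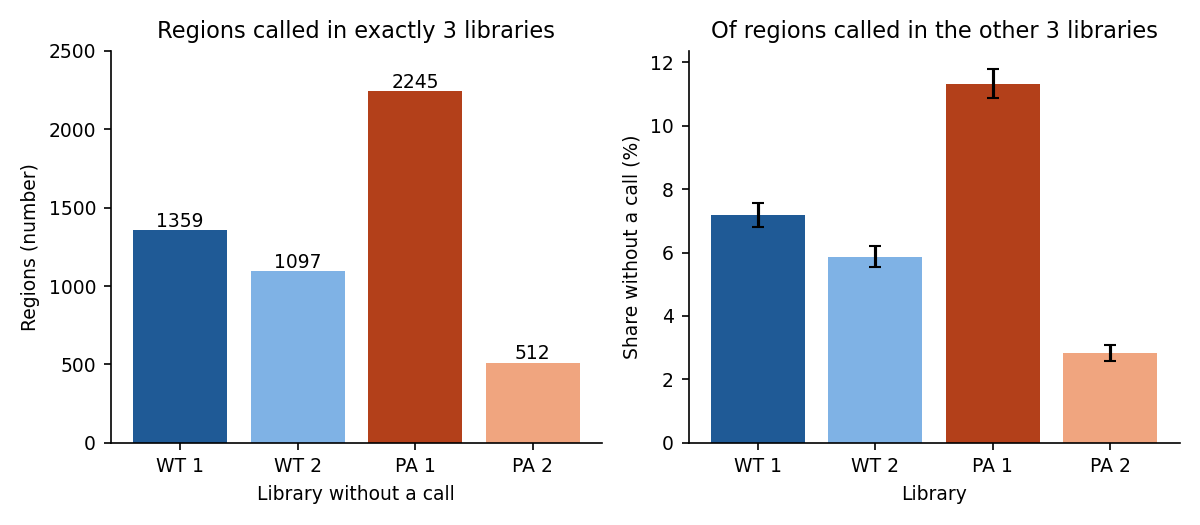
Left, the number of regions called in exactly 3 libraries by the library without a call. Right, the share of regions called in the other 3 libraries that each library lacked, in percent, with exact Clopper-Pearson 95% intervals. PA 1 and PA 2 are the highest and the lowest of the 4 libraries, with both WT libraries between them.

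By genotype, a WT library was the one lacking for 2456 regions and a PA library for 2757. A WT library lacked 1228 ± 185 on average (SD, n = 2), and a PA library 1378.5 ± 1225 (SD, n = 2). PA 1 and PA 2, the highest and the lowest count, are both of the PA genotype, so the counts of WT lie inside the range of PA. These counts follow from the rule. With 2 libraries per genotype, an exact permutation test over libraries cannot give a p-value under 0.333, so no test result is used.

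Most of these regions stood low in the lists that did call them. The lists do not run along the genome, and the sources used here do not say how the authors ordered them. The place of a call is given as the percent of the way down its own list, and serves as a description only. For regions lacking WT 1 the median place was 79.3% in WT 2, 72.1% in PA 1 and 73.8% in PA 2. For those lacking WT 2 it was 76.6% in WT 1, 69.6% in PA 1 and 68.7% in PA 2. For those lacking PA 1 it was 63.8% in WT 1, 67.0% in WT 2 and 62.4% in PA 2, and for those lacking PA 2 it was 73.1% in WT 1, 70.4% in WT 2 and 65.7% in PA 1. Regions called in all 4 libraries had medians from 32.4% to 36.9%. All 3 calls lay in the upper 50% of their lists for 769 regions (14.8%), and all 3 lay in the lower 50% for 3448 (66.1%). Regions lacking PA 1 stood highest. All 3 calls were in the upper 50% for 461 of them (20.5%, 18.9 to 22.3), against 118 (8.68%, 7.24 to 10.3) of those lacking WT 1, 124 (11.3%, 9.49 to 13.3) of those lacking WT 2 and 66 (12.9%, 10.1 to 16.1) of those lacking PA 2.

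How often a library lacked a region that the other 3 had called rose steeply with the mean place of the region in those 3 lists. Where that mean place was in the first 20%, WT 1 lacked 0.40% of 5001 regions, WT 2 0.482% of 4984 and PA 2 0.314% of 4783. PA 1 lacked 2.18% (1.80 to 2.62) of 5138 there, and its interval did not overlap those of the other libraries. In the last 20% the shares were 38.9% (36.3 to 41.6) in WT 1, 36.3% (33.8 to 38.8) in PA 1, 30.8% (28.2 to 33.6) in WT 2 and 12.3% (10.5 to 14.3) in PA 2. PA 1 thus lacked the largest share in the first 4 bins, and in the last bin the intervals of WT 1 and PA 1 overlapped.

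**Figure D2:**
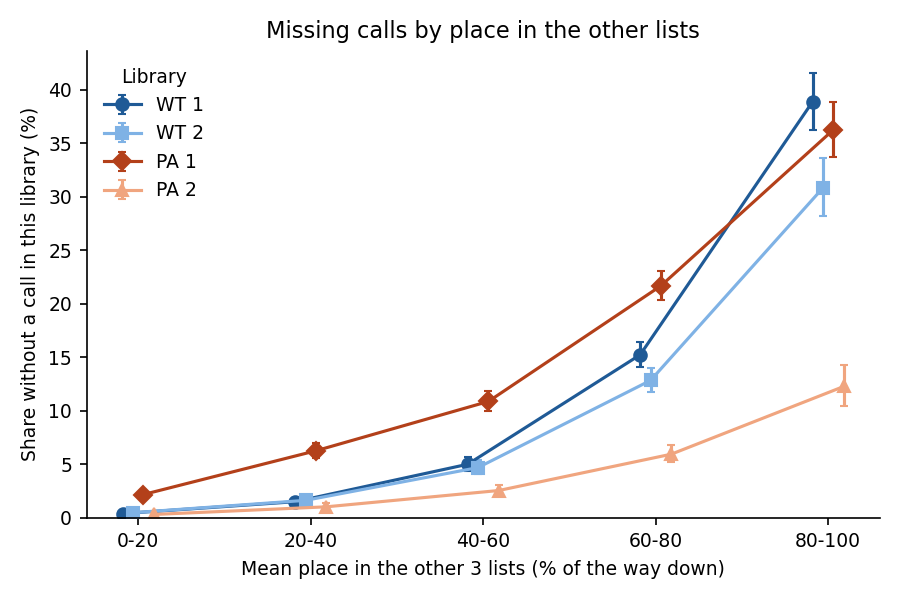
Share of the regions called in the other 3 libraries that a library lacked (vertical axis, percent) by the mean place of the region in those 3 lists (horizontal axis, percent of the way down, in bins of 20). Lines are the 4 libraries and bars are exact Clopper-Pearson 95% intervals; PA 1 lies above the others in the first 4 bins and PA 2 is lowest in each.

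For some of these regions the lacking library had a peak close by. Regions that touch a peak of a library count as called in it, so the nearest peak of the lacking library was at least 1 bp away, and it lay within 1 kb of 332 of the 5213 regions (6.37%, 5.72 to 7.07). The share was 5.52% for regions lacking WT 1, 6.2% for WT 2, 5.66% for PA 1 and 12.1% (9.41 to 15.3) for PA 2. A further peak of a library that did call the region lay as near in 1.76% to 3.12% of cases, depending on the library. The median distance to the nearest peak of the lacking library was 20723 bp for WT 1, 16550 bp for WT 2, 15309 bp for PA 1 and 11425.5 bp for PA 2, and it was over 20 kb for 2255 regions (43.3%).

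Such neighbouring peaks were most common for the regions that stood highest. Of the 171 regions with a mean place in the first 20%, 63 (36.8%, 29.6 to 44.5) had a peak of the lacking library within 1 kb. In the last 20% it was 13 of 1521 (0.855%). At Cited2, a transcriptional coregulator, the region over a gene end (chromosome 10, 17722928 to 17723373) stood 1.36%, 1.74% and 1.64% of the way down the WT 1, WT 2 and PA 1 lists. PA 2 had a peak 318 bp from it (17722210 to 17722609), at 1.43% of its own list. At Pnrc1, a nuclear receptor coactivator, the calls stood at 0.978%, 1.06% and 1.33%, and a PA 2 peak 562 bp away stood at 0.450%. At Hdlbp, the gene of the RNA-binding protein vigilin, the region lacking PA 1 stood at 2.41% in WT 1, 1.59% in WT 2 and 1.60% in PA 2, with a PA 1 peak 89 bp away at 2.12%. At Nfkbia, which encodes the NF-kappaB inhibitor IkappaB-alpha, the region lacking WT 1 (chromosome 12, 55491834 to 55492233) stood at 1.83%, 4.71% and 1.78%, with a WT 1 peak 191 bp away at 3.04%. At these 4 genes the lacking library thus had a high standing peak close by. The PA 1 peak beside the Hdlbp region lay in a region called in PA 1 alone. At Cited2, Pnrc1 and Nfkbia, whether the other libraries listed the neighbouring peak as well was not compared.

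Among regions with no peak of the lacking library within 1 kb, those lacking PA 1 stood highest in the other 3 lists. By the mean of the 3 places, the first 8 of them with a protein-coding gene end within 50 kb were assigned to Hjurp (a chaperone of the centromeric histone), Ptms (parathymosin), Junb (a subunit of the AP-1 factor), Bbc3 (the cell death protein PUMA), Nfic (a nuclear factor I protein), Cebpb (C/EBP beta), Angptl8 (a secreted regulator of lipoprotein lipase) and H2-DMa (which loads peptides on MHC class II proteins). The Hjurp region (chromosome 1, 88260043 to 88260473), inside a gene and 1187 bp from an end of Hjurp, stood at 1.16% in WT 1, 2.56% in WT 2 and 2.17% in PA 2, and the nearest PA 1 peak was 16932 bp away. The Junb region (chromosome 8, 84979902 to 84980586), 1154 bp from an end of the gene, stood at 4.09%, 1.69% and 6.67%, with no PA 1 peak within 9728 bp. The Cebpb region (chromosome 2, 167688770 to 167689210), over the start shown above, stood at 7.91%, 4.47% and 5.75%, with the nearest PA 1 peak 26875 bp away. The Bbc3 region stood at 5.11%, 6.93% and 3.4%, and the Angptl8 region at 9.70%, 5.93% and 3.18%. In each of these 5 regions all 3 calls stood in the first 10% of their lists. The H2-DMa region lay 13 bp from an end of that gene and 220 bp from a listed start of Brd2, a bromodomain protein.

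Fewer regions lacking another library stood that high. The first 8 lacking WT 2 were assigned to Mnt (a MAX-binding repressor), Tomm40l (a mitochondrial import channel), Gtf2a1 (a subunit of TFIIA), Mgst1 (a microsomal glutathione transferase; 2 regions), Tnrc18, Slc9a3r1 (the scaffold protein NHERF1) and Tst (the sulfur transferase rhodanese). The Mnt region (chromosome 11, 74830198 to 74830654) stood at 5.59% in WT 1, 4.25% in PA 1 and 3.75% in PA 2, 1476 bp from a WT 2 peak. The Mgst1 regions, at 138139889 to 138140290 and 138141231 to 138141635 of chromosome 6, stood at 7.39% and 5.11% in WT 1, 15.1% and 13.2% in PA 1, and 5.79% and 9.89% in PA 2. The nearest WT 2 peak was 21994 bp from the first of them and 23336 bp from the other. The first region lay 237 bp from its start and overlapped the window shown above by 14 bases, so that start lay outside it. The other region lay over its start, where WT 2 had no call. The Tomm40l region also lay 810 bp from the start of Apoa2, the gene of apolipoprotein A-II.

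The first 8 lacking WT 1 were assigned to Abcc4 (the efflux pump MRP4), Rbm15b (an RNA-binding protein of the RNA methylation complex), Slc12a7 (a potassium-chloride cotransporter), Nrp2 (a semaphorin and VEGF receptor), Micos13 (a subunit of the mitochondrial cristae complex; an end of Rpl36 lay beside it), Mtss1, Shc1 (a signalling adaptor) and Ahsg. The Abcc4 region (chromosome 14, 118706300 to 118706739) stood at 17.8% in WT 2, 5.81% in PA 1 and 7.47% in PA 2, with no WT 1 peak within 31198 bp. The Rbm15b region stood at 14.6%, 12.5% and 9.48%, and the Ahsg region at 12.6%, 31.4% and 14%. In the Abcc4 and Rbm15b regions the remaining WT library stood lowest of the 3, and in the Ahsg region PA 1 did.

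Of the first 8 lacking PA 2, 7 were assigned to Birc5 (the survivin protein), Midn, C2cd2, Tspan4, Rpl35, Vwa8 and Sec14l4. The Birc5 region (chromosome 11, 117848975 to 117849390) stood at 3.15% in WT 1, 7.32% in WT 2 and 9.55% in PA 1, with the nearest PA 2 peak 38217 bp away. The C2cd2 region (chromosome 16, 97922420 to 97922825), over the start shown above, stood at 17.8%, 14% and 10.9%, 1419 bp from a PA 2 peak. By the eighth in order the mean place was 20.8% for regions lacking PA 2, 19.4% for WT 1, 13.6% for WT 2 and 6.6% for PA 1. The pools these were taken from differ in size.

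Regions called in 3 libraries lay near genes in another way than those called in all 4. At a protein-coding gene end were 910 of the 5213 (17.5%, 16.4 to 18.5), against 44.3% (43.5 to 45) of regions in all 4 libraries, 13.4% of those in 2 and 10.7% of those in 1. Inside genes, away from the ends, were 2190 (42.0%), between genes within 50 kb 1221 (23.4%), and 892 (17.1%) lay over 50 kb from a gene end and outside genes. Within 1 kb of a listed RefSeq start were 722 (13.8%). The share near a gene end was 14.3% (12.9 to 15.8) for regions lacking PA 1, 18.7% (16.7 to 20.9) for WT 1, 19.2% (16.9 to 21.7) for WT 2 and 24.2% (20.6 to 28.2) for PA 2. Regions are not replicates, each class rests on 1 lacking library, and no test was run on these shares.

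Within bins of the mean place in the other 3 lists, regions lacking PA 1 lay near gene ends less often in every bin than the regions that PA 1 also called. The bins are 20% wide. Regions lacking a library may stand lower within a bin than those it called, and this was not compared. The same direction held in every bin for WT 2 and in most bins for WT 1 and PA 2. Where the mean place in the other 3 lists was between 60% and 80%, a gene end lay within 1 kb of 9.18% (7.29 to 11.4) of the regions lacking PA 1, against 24.1% of those that PA 1 also called. For PA 2 the same shares were 22.5% (16.9 to 28.9) and 21.4%, for WT 2 17.9% (14.4 to 21.8) and 22.4%, and for WT 1 13.5% (10.8 to 16.7) and 20.0%. Between 40% and 60% they were 16.8% (13.6 to 20.4) and 33.5% for PA 1, 31.1% (25 to 37.8) and 31.0% for WT 1, 21.4% (15.9 to 27.7) and 32.6% for WT 2, and 29.5% (21.0 to 39.2) and 32.8% for PA 2. In the first 20% the share was 41.1% (31.9 to 50.8) of 112 regions lacking PA 1 against 67.8%. The interval for regions lacking PA 1 lay below the share of the regions it called in all 5 bins. For WT 2 that was so in the 3 bins from 20% to 80%, for WT 1 in 1 bin, from 60% to 80%, and for PA 2 in 0. The intervals are wider where fewer regions lacked the library. A bin held 15 to 200 regions lacking PA 2 and 112 to 817 lacking PA 1, so these bin counts do not rank the libraries.

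**Figure D3:**
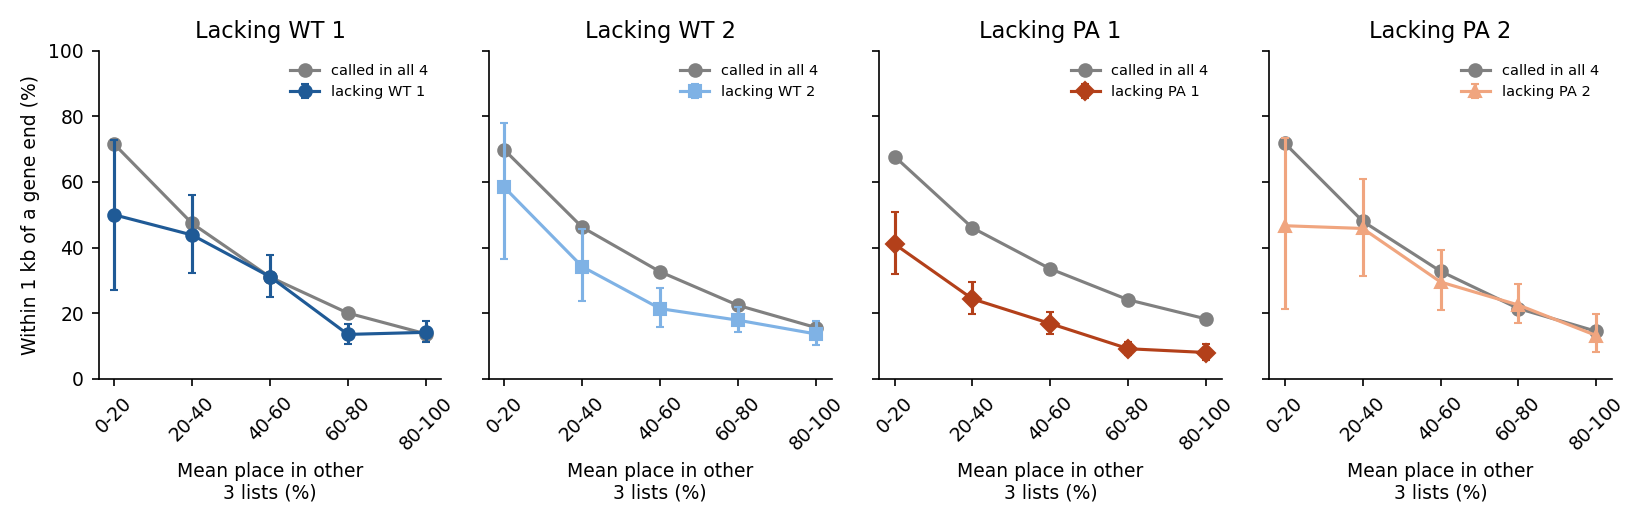
Share of regions within 1 kb of a protein-coding gene end (vertical axis, percent) by mean place in the other 3 lists (horizontal axis, percent of the way down), 1 panel for each lacking library. Coloured points are regions lacking that library, with exact Clopper-Pearson 95% intervals, and grey points are regions called in all 4 libraries. Coloured points lie under the grey ones in every bin for PA 1 and for WT 2.

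Start windows under these regions were poorer in CpG than those under regions called in all 4 libraries and richer than uncalled ones. RefSeq lists 21044 start windows for 17273 of the 21627 protein-coding genes. Over 657 of them, of 603 genes, the region with the largest overlap was called in 3 libraries. Their median was 19 CpG (quartiles 10 and 27), against 23 (17 and 31) for 7787 windows under regions in all 4 libraries, 17 for those in 2, 16 for those in 1 and 5 (2 and 13) for 11460 windows with no call. Fewer than 5 CpG were found in 72 of the 657 windows (11.0%), against 2.89% in all 4 libraries and 46.9% with no call. By lacking library the median was 20 for WT 1 and PA 2, 18 for WT 2 and 17 for PA 1, and the share under 5 CpG was 5.43%, 8.33%, 12.9% and 15.5% in that order.

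**Figure D4:**
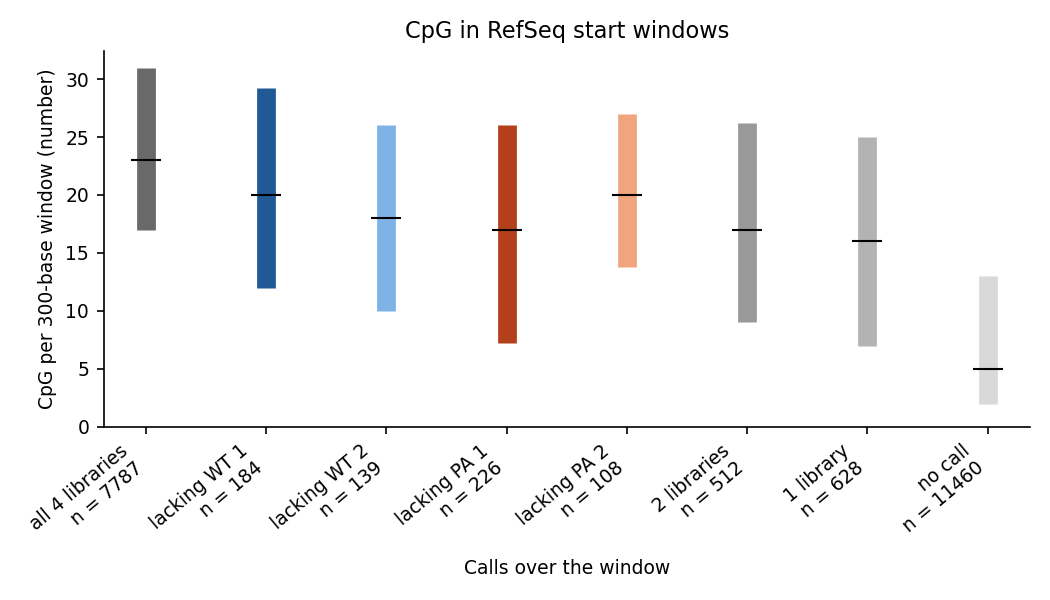
CpG per 300-base RefSeq start window (vertical axis, number) by the calls over the window. Bars run from the lower to the upper quartile, black marks are medians and n is the number of windows; windows lacking 1 library have medians from 17 to 20, between the 23 of windows called in all 4 libraries and the 5 of windows with no call.

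Several promoter strings were less common than under regions called in all 4 libraries. The GC box occurred in 60.6% of the 657 windows, in 72.1% of those called in all 4 libraries and in 46.7% of all windows. Among windows with 10 or more CpG it occurred in 72.9% under regions of exactly 3 libraries and 76.4% under those of all 4. With fewer than 10 CpG these shares were 21.5% and 25.3%, so the difference was smaller within each CpG class. The strings named next were not split by CpG. The ETS core (CCGGAA) occurred in 22.7%, 33.6% and 18.9%, the NRF1 part site (TGCGCA) in 11.3%, 17.3% and 9.74%, the core of the CREB and ATF site (TGACGT) in 8.98%, 14% and 8.58%, and the CCAAT box in 32.0%, 42.4% and 38.5%. At least 1 of the 3 liver factor strings was found in 46 of the 158 windows with fewer than 10 CpG (29.1%), against 24.3% in all 4 libraries and 22.6% of all such windows. The share was 33.1% under regions called in 2 libraries and 34.4% under those called in 1, and it ran from 18.8% for windows lacking WT 2 to 34.3% for those lacking PA 1, so it did not set the windows of exactly 3 libraries apart. Both strands were searched, strings may overlap, and a match is a description of the letters and not a bound site.

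Genes of liver pathways were named from 19 lists, chosen with earlier results of these data known. Of their 331 genes, 29 (8.76%) had a region of exactly 3 libraries at a gene end, where 4.64% of all 21627 protein-coding genes did. Such a region lacked PA 1 at 15 of them (1.65% of all genes did), WT 2 at 8 (1.1%), WT 1 at 5 (1.25%) and PA 2 at 2 (0.689%), with Apob under both WT 2 and PA 1. Neither the 28 genes of propionate and branched-chain amino acid breakdown nor the 28 of histone acylation and acyl-CoA supply had one. With 28 genes in a list, having none is not far from the 4.64% over all genes. In these lists 24 and 23 genes had a region called in all 4 libraries at an end, where 40.7% of all protein-coding genes had one. Of the 1004 genes with a region of exactly 3 libraries at an end, 9.96% also had one of all 4, which had to be a separate region.

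In fatty acid oxidation 2 of 24 genes had such a region, in fatty acid, triglyceride and cholesterol synthesis 1 of 28, and in glucose and glycogen 2 of 21, where 4.64% of all genes did. Of these 5 genes 4 lacked PA 1, the library lacking at 356 of the 1004 such genes over all, and no test was run on so few. At Acadl, the long-chain acyl-CoA dehydrogenase, the calls stood at 7.03% in WT 1, 8.82% in WT 2 and 8.94% in PA 2, and PA 1 had a peak 114 bp away. At Acaa1b (chromosome 9, 119156910 to 119157311) they stood at 13.8%, 17.8% and 18.8%, with a PA 1 peak 1019 bp away. At Elovl6, a fatty acid elongase (chromosome 3, 129531958 to 129532388), they stood at 15.9%, 13.9% and 8.35%, with no PA 1 peak within 37459 bp. At Slc2a2, the glucose transporter GLUT2 (chromosome 3, 28697714 to 28698133), they stood at 30.0%, 28.7% and 26.5%, and the nearest PA 1 peak was 7496 bp away. Ppp1r3b, a glycogen-targeting subunit of protein phosphatase 1, lacked PA 2, stood at 11.4%, 5.44% and 8.73% in the other lists, had a PA 2 peak 569 bp away and also had a region called in all 4 libraries at an end. Of these 5 genes, Acaa1b, Elovl6 and Slc2a2 thus had no peak of the lacking library within 1 kb, with the one at Acaa1b just beyond that limit.

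**Figure D5:**
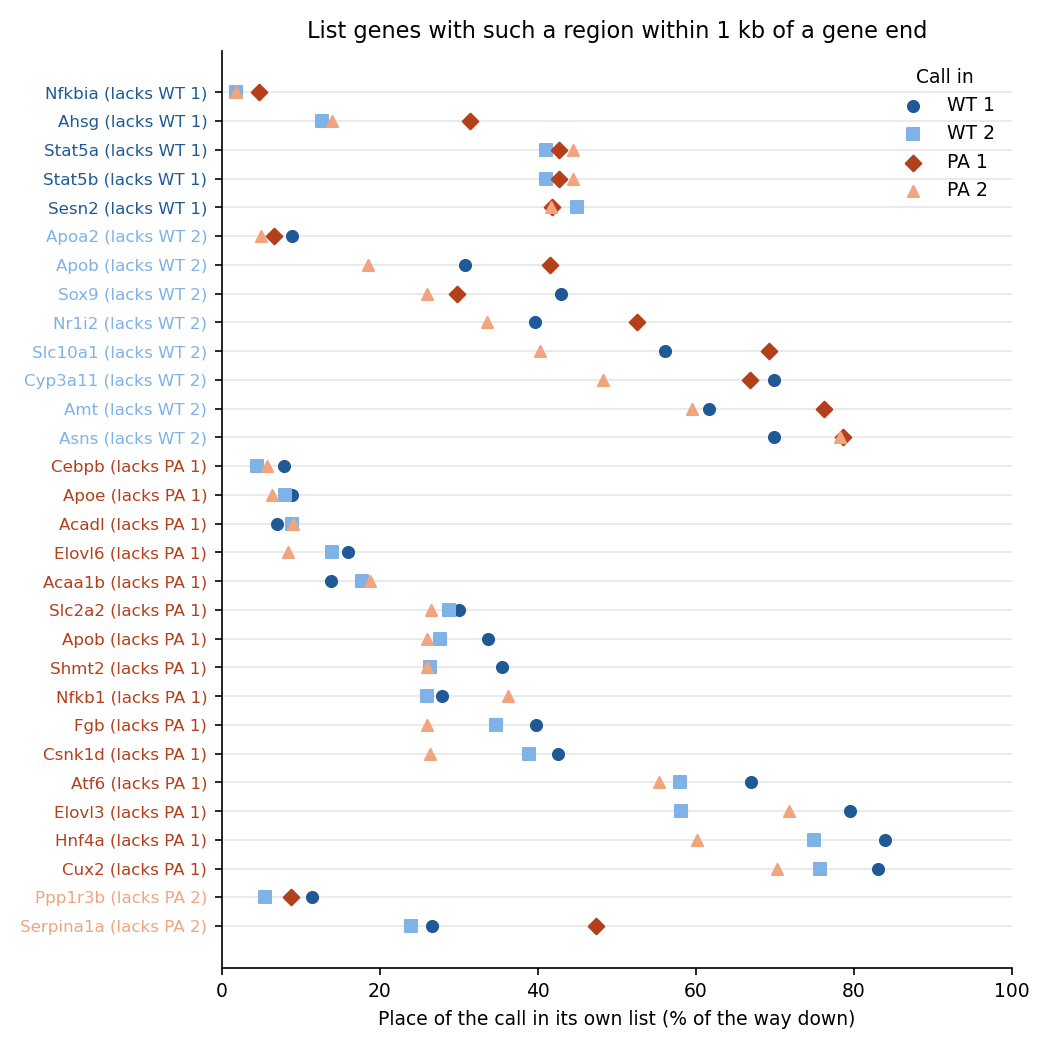
Place of each call in its own list (horizontal axis, percent of the way down) for the list genes with a region of exactly 3 libraries within 1 kb of a gene end. Each row is 1 gene and region, named with the lacking library, and symbols are the 3 libraries with a call; Apob has 2 rows, and Stat5a and Stat5b share 1 region.

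Among secreted proteins 5 of 28 genes (17.9%) had such a region, and in the acute phase and cytokine list 4 of 23 (17.4%). Over all protein-coding genes the share was 4.64%. At Apoe (apolipoprotein E; chromosome 7, 19700906 to 19701339), over a gene end beside an end of Tomm40 and 1718 bp from the nearest listed start, the calls stood at 8.86% in WT 1, 8.01% in WT 2 and 6.35% in PA 2, and the nearest PA 1 peak was 14203 bp away. At Apob, the structural protein of very low density lipoprotein, a region lacking PA 1 and another lacking WT 2 lay side by side, the first 584 bp from a PA 1 peak and the other 541 bp from a WT 2 peak. At Serpina1a (chromosome 12, 103863550 to 103863957) the calls stood at 26.6% in WT 1, 23.9% in WT 2 and 47.3% in PA 1, with the nearest PA 2 peak 39248 bp away. PA 1 thus stood lower than both WT libraries there, and PA 2 had no call. Fgb, the fibrinogen beta chain, lacked PA 1 and stood at 39.8%, 34.7% and 25.9%, and Nfkb1, an NF-kappaB subunit, lacked PA 1 with a PA 1 peak 18 bp away. Cebpb and Nfkbia, described above, completed the acute phase list.

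In the bile acid and xenobiotic list 3 of 20 genes had such a region, where 4.64% of all genes did. Each of the 3 lacked WT 2, which was so at 1.1% of all genes. With 3 genes this is a description of those genes and not of the list. Nr1i2 stood at 39.7% in WT 1, 52.6% in PA 1 and 33.6% in PA 2. Slc10a1, the bile acid uptake transporter NTCP, stood at 56.1%, 69.3% and 40.3%, and Cyp3a11, a drug-metabolizing cytochrome P450, at 69.9%, 66.9% and 48.3%. The nearest WT 2 peaks were 6495, 7583 and 24432 bp away. In all 3 of these the PA 2 call stood highest. Over all regions lacking WT 2 the median place was also highest in PA 2, at 68.7% against 69.6% in PA 1 and 76.6% in WT 1. Amt, a subunit of the glycine cleavage system and the single member of the urea cycle, glutamine and glycine list (1 of 19), also lacked WT 2 and stood at 61.7%, 76.3% and 59.5%.

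Regulators of liver identity and of sex-biased expression came with mostly lower places. Hnf4a, the hepatocyte nuclear receptor (chromosome 2, 163506513 to 163506948), stood at 83.9% in WT 1, 75% in WT 2 and 60.1% in PA 2, with no PA 1 peak within 33663 bp. Of 25 hepatocyte transcription factors, Hnf4a and Cebpb had such a region and 12 had one called in all 4 libraries. Over all protein-coding genes these shares were 4.64% and 40.7%. Sex-biased genes had a region of exactly 3 libraries at 4 of 22. Cux2, a female-biased repressor, stood at 83.0%, 75.7% and 70.3%, and Elovl3, a male-biased elongase, at 79.6%, 58.2% and 71.7%, both lacking PA 1. Stat5a and Stat5b, which carry the growth hormone signal, share a region that lacked WT 1 and stood at 41.0% in WT 2, 42.6% in PA 1 and 44.5% in PA 2, 603 bp from a WT 1 peak. The clock list had Csnk1d alone (1 of 21), and the stress and unfolded protein list had Shmt2, Atf6, Sesn2 and Asns (4 of 21), lacking PA 1, PA 1, WT 1 and WT 2.

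At most genes with such a region at an end, the lacking library had no other call at either end of the gene. Over all protein-coding genes, 1004 had a region of exactly 3 libraries at an end, and at 777 of them (77.4%) the lacking library had no peak within 1 kb of either end. The share was 80.4% for WT 1, 76.5% for WT 2, 73.6% for PA 1 and 77.2% for PA 2. A region called in all 4 libraries lay at an end of 100 of the 1004 genes (9.96%), where 40.7% of all protein-coding genes had one. The choice of the 1004 genes lowers this share. The region that chose a gene cannot itself be one of all 4 libraries, so a separate region was needed.

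Few genes gathered several regions with the same library missing. Within 50 kb of a gene end were 3701 of the 5213 regions, and they were assigned to 3108 genes. Genes with 2 or more regions lacking the same library numbered 143 of 1439 for PA 1, 41 of 871 for WT 1, 31 of 758 for WT 2 and 6 of 386 for PA 2, in the order of the number of regions lacking each. Stim2, an endoplasmic reticulum calcium sensor, had 4 regions lacking PA 1 among 9 assigned to it, and Akap13 and Cdk6 had 3 each. The 3 at Cdk6, a cell cycle kinase, all lay inside a gene, with mean places from 19.8% to 72.6% and PA 1 peaks at 9863 bp or more. Hectd2 and Slc22a22 had 3 lacking WT 1, Epb41l2 had 3 lacking WT 2, and no gene had more than 2 lacking PA 2.

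Neighbouring regions lacked the same library somewhat more often when they lay within 200 kb of each other. Of 178 pairs of successive regions 2 to 10 kb apart, 36.0% (28.9 to 43.5) lacked the same library, and of 39 pairs up to 2 kb apart 35.9% (21.2 to 52.8). Of 795 pairs 10 to 50 kb apart it was 37.9% (34.5 to 41.3), of 1498 pairs 50 to 200 kb apart 35.0% (32.6 to 37.5), and of 2683 pairs over 200 kb apart 30.5% (28.8 to 32.3). The intervals of the pairs up to 10 kb apart are wide and include the value of the far ones, and whether close pairs share a cause was not tested.

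All chromosomes took part. The share lacked by PA 1 ran from 8.25% (6.37 to 10.5) on chromosome 16 to 13.2% (11.0 to 15.8) on chromosome 15, and that of WT 2 from 4.57% on chromosome 7 to 7.41% on chromosome 19. PA 2 ran from 1.63% on chromosome 17 to 4.55% on chromosome 19. WT 1 lacked 10.5% (8.35 to 13.0) on chromosome 14, against 5.08% (3.87 to 6.53) on chromosome 7. On chromosome X the shares were 11.5% for PA 1, 6.10% for WT 2, 5.91% for WT 1 and 2.53% for PA 2, in a different order of the WT libraries than over all chromosomes but with intervals that overlap.

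Regions of 3 libraries also lay within 1 kb of 7 of the 1005 listed microRNA hairpins, where regions called in all 4 libraries lay near 83. A region lacking WT 1 overlapped the hairpin of Mir199a-2 and stood at 65.6% in WT 2, 50.4% in PA 1 and 60.3% in PA 2, with no WT 1 peak within 29350 bp. A region lacking WT 2 lay 534 bp from Mir101b, and one lacking PA 1 lay 537 bp from Mir148b.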

How the data were processed

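The authors deposited 1 list of peak positions per library, with no measured value beside them. The submitters' processing notes name bedtools 2.31.0, HOMER 4.10, R 4.1.2, SAMtools 1.17, Bowtie2 2.5.1, cutadapt 3.5 and the build GRCm38 (mm10), without roles. How peaks were called and thresholded, and how reads were filtered or shifted, was not given in the sources used here. A library with more reads or lower background can pass a threshold at more places, and depth is unknown.

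Groups came from sample titles. Peaks were merged and annotated with Python 3.11.15, numpy 2.4.6, pandas 2.3.3 and scipy 1.17.1, and the functions were tested on simulated data. Gene ends and start windows came from RefSeq tables of GRCm38.p6, on chromosomes 1 to 19 and X, with no exons. All 332 list symbols matched, 2 by an older symbol, to 331 genes. Intervals are exact Clopper-Pearson. The members and lists were chosen with earlier results of these data known. Named genes were list genes with a region within 1 kb of an end, the 8 highest regions per lacking library over 1 kb from its peaks and within 50 kb of a gene end, and the 3 genes per library with the most regions. The regions with a near peak of the lacking library (Cited2, Pnrc1, Hdlbp) and the low CpG windows were chosen after their values were seen. The remaining region of the 8 lacking PA 2 is not reported here. Alternatives changed list length, threshold, overlap, merging distance, gene distance and left-out library.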

Additional observations from a re-analysis of the deposited data

How the results depend on the processing

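The order of the lacking libraries, PA 1, WT 1, WT 2 and PA 2 from most to fewest, was the same under every setting that kept all 4 libraries. With lists of equal length, 827 regions lacked PA 2 and 18.8% of all lay at a gene end. Merging the upper 50% of each list alone gave 2399 regions of exactly 3 libraries. The lists were cut first, so a library counted as lacking may have a call in the lower 50% of its list. Among the 5213 regions above, 769 had all 3 calls in the upper 50%. Of the 2399, 1048 lacked PA 1, 690 WT 1, 477 WT 2 and 184 PA 2, with 33.2% at a gene end and 7.42% within 1 kb of a peak of the lacking library. Asking for 50% of a peak to be shared gave 19.3% and 12.6% for those shares. Under that setting a library whose own peak in the region shared less counts as lacking. That peak then counts as near, which raises the second share by construction. Merging peaks up to 200 bp apart gave 3.84% with a near peak, and merging up to 1 kb gave 0% by construction and 16.1% at a gene end. Overlap with the end itself gave 10.95%, a limit of 2 kb 20.4%, and a listed start in place of a gene end, chosen after seeing the data, 13.85%. Leaving out 1 library and keeping regions missing from exactly 1 of the other 3, a looser rule, gave totals from 6222 to 7225, with 3015 to 3515 lacking PA 1, 1931 to 2675 WT 1, 1615 to 2418 WT 2 and 1035 to 1282 PA 2, 15.3% to 16.8% at a gene end and 6.23% to 7.20% with a near peak. Beyond these constructions the cause was not tested. No paired analysis was possible because the counts and shares come from no test: the missing calls chose the regions. With unknown depth and no height, a region just under a library's threshold and a closed one cannot be told apart, and each class of regions rests on 1 lacking library.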
